A study of Mus musculus with 4 samples.

Results

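The genes described here are 37 interferon-stimulated and antigen presentation genes, read in the cerebellum of mice lacking Derlin-2 in the central nervous system and of controls. A gene was read through every array probe whose RefSeq accession belongs to it: 35 of the 37 genes had a probe, Mx1 and Mx2 had none, and 34 of them were among the 16524 genes tested, out of 22911 genes named on the array. The gene that had probes and was not tested is Zbp1, a sensor of unusual nucleic acids, neither of whose probes was well above background on both arrays of a group. There were 2 control and 2 KO samples of total RNA from cerebellum at postnatal day 28, each read on its own one-colour Agilent array. The mice were C57BL/6 and were kept free of specific pathogens. Control mice were Derlin-2flox/flox. KO mice came from crosses of Derl2flox/flox mice with mice that carry Cre under control of the nestin promoter; nestin is a gene of neural precursors. Whether the controls also carried Cre, and whether an RNA sample came from 1 mouse or several, is not given in the sources used here, so the p-values measure the spread between these samples.

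Type I and type II interferons bind receptors on most cell types and act through STAT and IRF transcription factors on a shared set of target genes. The products of these targets sense foreign nucleic acid, block steps of viral replication, attack the membranes around intracellular pathogens, and cut, carry and display peptides on MHC class I molecules. In brain without infection the targets are held at a low, steady level, to which neurons, astrocytes, microglia, endothelium and the cells of the meninges all contribute; the last 3 arise largely outside the neural precursors in which nestin is active. Derlin-2 is a membrane protein of the endoplasmic reticulum that takes part in the removal of misfolded proteins.

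All signals below are log2 processed intensities after subtraction of the 75th percentile of the same array, so 0 is that percentile and a step of 1 is a doubling. A level is read only against the same probe on another array. Differences are KO minus control in a limma fit over all 37516 probes kept, with 2 arrays per group, and adjusted p-values are Benjamini-Hochberg values over those probes. Where several probes of a gene were kept, the brightest was read.

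The targets share a regulatory sequence, so the region before the gene start is shown for members of different roles. RefSeq promoter windows (GRCm38.p6, 250 bases before and 50 after the gene start) were available for 28 of the 37 members. The core of the interferon-stimulated response element was searched as GAAANNGAAA on both strands, and the gamma-activated site as TTCNNNGAA, which reads the same on both strands. The first was found in 15 of the 28 members (53.6%) against 3.99% of all 27025 genes with a window (3.44% of 32851 windows), and the second in 5 of 28 (17.9%), against 9.55% of genes (8.3% of windows); neighbouring matches of the first can overlap one another. Isg15 (chr4:156200819-156201068, minus strand) held 3 overlapping matches of the first motif, the nearest to the 5′ end at position −78 from the gene start. Oas1a (chr5:120907526-120907775, minus strand) held 2, from position −20, and 1 gamma-activated site. Rsad2 (chr12:26456453-26456702, minus strand), Gbp2 (chr3:142620413-142620662, plus strand), Stat2 (chr10:128270248-128270497, plus strand) and B2m (chr2:122147437-122147686, plus strand) held 1 match of the first motif each, at positions −120, −59, −222 and −139. Tap1 and Psmb9 lie head to head, and the 225 bases between their starts (chr17:34187331-34187555, written along Tap1 on the plus strand) held neither. The 250 bases before each start follow, 5′ to 3′ along the gene, with matches of both motifs in capitals. A match here is a description of the letters, not of a bound site.
Isg15: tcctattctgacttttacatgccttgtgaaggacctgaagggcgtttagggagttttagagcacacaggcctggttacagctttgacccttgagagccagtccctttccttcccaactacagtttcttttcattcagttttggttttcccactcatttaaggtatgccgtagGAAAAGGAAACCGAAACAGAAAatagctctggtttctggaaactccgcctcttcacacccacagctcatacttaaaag
Oas1a: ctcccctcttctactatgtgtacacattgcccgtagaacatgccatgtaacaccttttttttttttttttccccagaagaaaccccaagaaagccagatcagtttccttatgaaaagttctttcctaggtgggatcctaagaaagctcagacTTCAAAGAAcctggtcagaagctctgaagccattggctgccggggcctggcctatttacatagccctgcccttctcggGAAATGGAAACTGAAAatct
Rsad2: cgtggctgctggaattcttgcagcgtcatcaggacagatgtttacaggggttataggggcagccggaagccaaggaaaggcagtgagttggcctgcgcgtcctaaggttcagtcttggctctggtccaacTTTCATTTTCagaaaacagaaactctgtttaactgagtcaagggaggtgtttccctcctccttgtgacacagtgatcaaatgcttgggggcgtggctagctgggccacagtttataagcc
Gbp2: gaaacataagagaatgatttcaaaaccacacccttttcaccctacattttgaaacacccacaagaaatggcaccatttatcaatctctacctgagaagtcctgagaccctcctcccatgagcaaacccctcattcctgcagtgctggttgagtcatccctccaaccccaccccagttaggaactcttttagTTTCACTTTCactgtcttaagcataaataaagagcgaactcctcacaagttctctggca
Stat2: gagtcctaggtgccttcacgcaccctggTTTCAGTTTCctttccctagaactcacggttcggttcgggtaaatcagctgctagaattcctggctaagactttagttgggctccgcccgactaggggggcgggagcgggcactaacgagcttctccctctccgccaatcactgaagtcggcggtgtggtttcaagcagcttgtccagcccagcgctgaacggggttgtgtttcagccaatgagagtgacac
B2m: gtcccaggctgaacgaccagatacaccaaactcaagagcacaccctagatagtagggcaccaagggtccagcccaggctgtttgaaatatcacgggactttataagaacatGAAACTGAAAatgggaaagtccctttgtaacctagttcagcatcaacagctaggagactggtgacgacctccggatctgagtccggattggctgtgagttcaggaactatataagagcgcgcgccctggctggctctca
Between Psmb9 and Tap1: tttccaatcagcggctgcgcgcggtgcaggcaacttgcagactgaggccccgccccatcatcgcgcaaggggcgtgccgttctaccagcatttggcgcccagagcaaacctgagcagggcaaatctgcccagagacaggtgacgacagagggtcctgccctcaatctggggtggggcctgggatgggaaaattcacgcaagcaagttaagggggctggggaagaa

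The arrays were alike in overall signal. Between 66.4% and 69.4% of spots were well above background, no spot was saturated, and the 75th percentile lay between 9.50 and 9.64 on the log2 scale of intensity. Derl2, the targeted gene, read 2.13 and 2.20 in the controls and 0.81 and 0.70 in KO, 37.6% of the control level (limma adjusted p = 0.273). All arrays lay on 1 slide and shared 1 scan, with controls at positions 1 and 2 and KO at positions 3 and 4, so position and group cannot be told apart. On control 1, 1350 spots lay on or beside a patch of raised local background, against 32 on control 2 and 0 on the KO arrays; Ifi44 was the only member tested whose spot lay there.

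Loss of Derlin-2 was not accompanied by a change of any interferon-stimulated or antigen presentation gene that passed the test, and the 2 KO samples differed from each other by a median of 0.43 across these genes, beside a median KO minus control difference of −0.21. Isg15, the OAS genes and Rsad2 were low on the array of KO 1 and, apart from Rsad2 and Oasl1, near or above the control level on that of KO 2. Rsad2, Oasl1 and, by less than 0.01 for KO 2, Isg15 were below both controls on both KO arrays. The class I genes B2m, H2-K1 and H2-D1 were modestly lower on both KO arrays, by −0.27 to −0.45. The transcription factors Irf9 and Stat2 were higher on both KO arrays, by 0.39 and 0.28.

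Of the 34 members tested, 0 were higher and 0 lower at a limma adjusted p of 0.05, against 0% and 0% of all genes. The smallest adjusted p among the members was 0.332, for B2m. At an unadjusted limma p under 0.05, 1 member was higher (Irf9) and 3 were lower (Oasl1, Gbp2 and B2m), against backgrounds of 3.16% higher and 5.65% lower over all genes. With arrays scaled to spike-in probes this split became 2 higher and 0 lower. The KO and control values did not overlap for 3 members on the higher side (Irf9, Stat2 and Trim30a), against 13.8% of all genes, and for 12 on the lower side, against 32.1%; both shares are near or below the background. The median difference of the members was −0.21, beside −0.06 for all genes, and it lay at 0.03 without KO 1 and at −0.50 without KO 2. In bulk RNA, fewer cells of a type and less RNA per cell cannot be told apart.

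**Figure D1:**
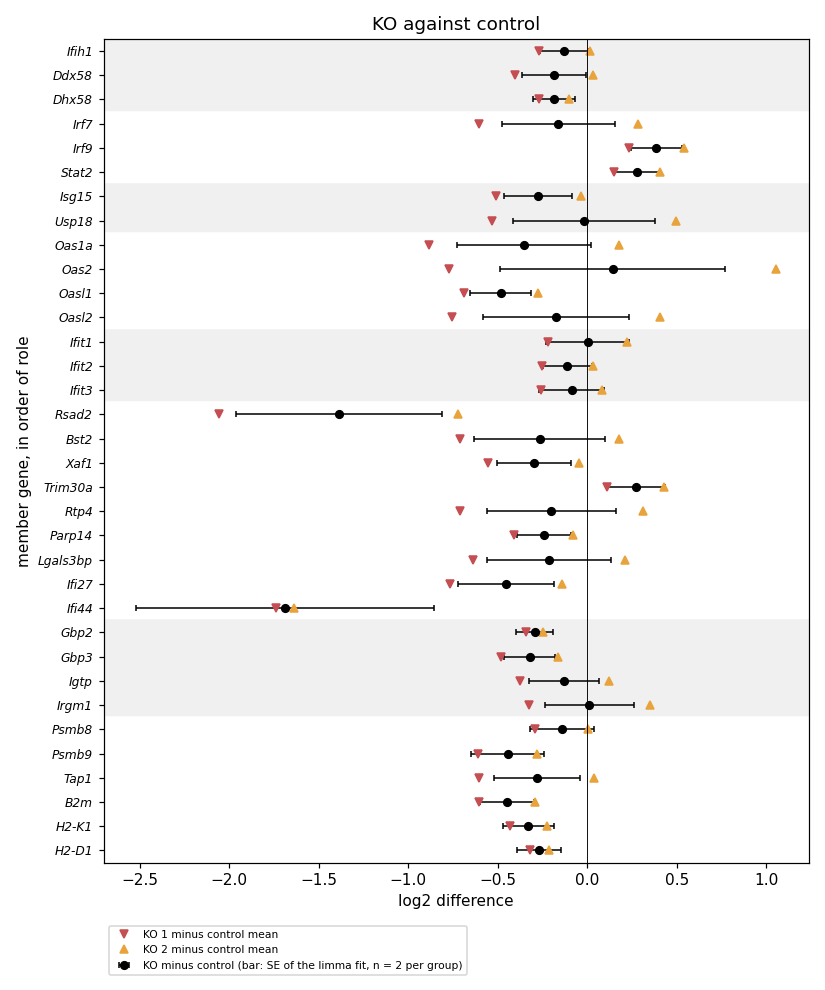
Difference from control for each of the 34 members tested, in log2 units on the horizontal axis, with members on the vertical axis in order of role and shading by role. Black points are KO minus control with the SE of the limma fit (n = 2 per group); triangles are KO 1 and KO 2 each minus the control mean. The KO 2 triangle lies to the right of the KO 1 triangle for 34 of 34 members, and Rsad2 and Ifi44 have the most negative differences, −1.39 and −1.69.

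The pattern that runs through the members lies within the KO group. KO 1 was below KO 2 for 34 of 34 members tested, against 49.5% of all genes, and was the lowest of the 4 arrays for 30 of 34, against 32.8%. KO 1 was below both controls for 30 members (49.3% of all genes), while KO 2 was above both controls for 16 (27.6% of all genes) and below both for 12 (49.3% of all genes). The median of KO 2 minus KO 1 was 0.43 over the members and −0.002 over all genes, whereas the median of control 2 minus control 1 was −0.01 over the members and 0.01 over all genes. For 12 members KO 2 exceeded KO 1 by more than 0.556, the 95th percentile of that difference over all genes. The members also differed between the controls, but in both directions. Control 2 minus control 1 was above its 95th percentile over all genes (0.432) for 3 members and below its 5th (−0.423) for 3. That interferon targets varied between animals of a group was known when the genes were chosen, so these counts describe the samples and carry no test. Under each of 10 alternatives in scaling, background, spots, filter or probes, KO 1 was below KO 2 for every member tested, and it was the lowest array for 29 to 31.

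**Figure D2:**
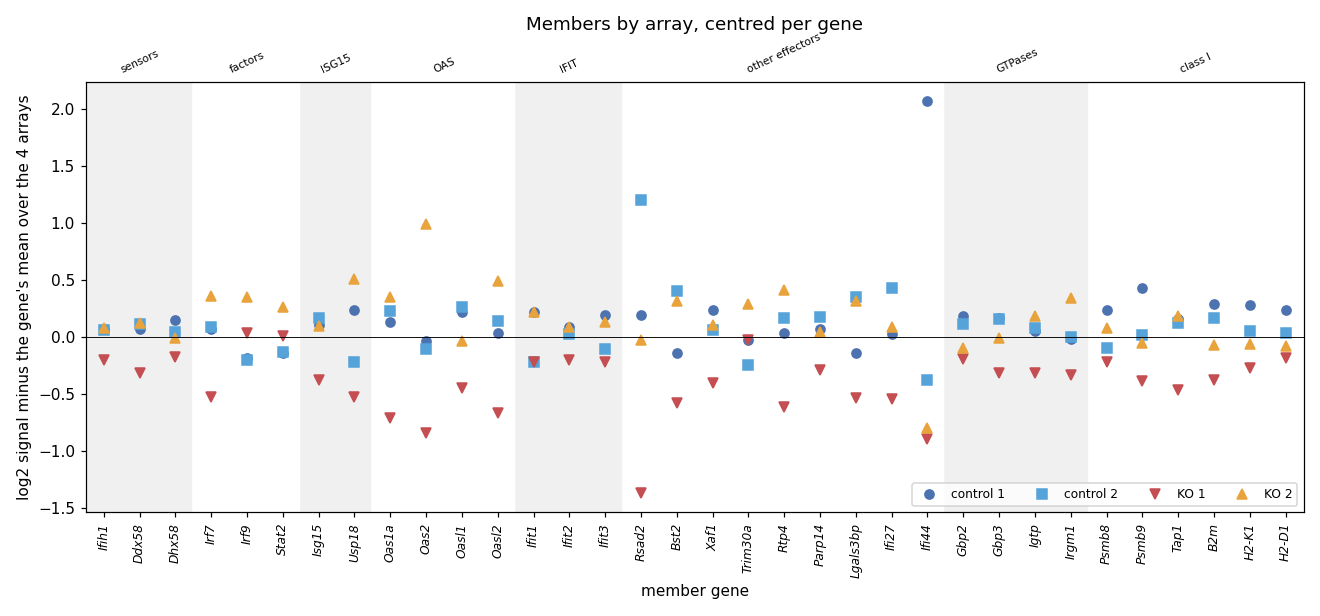
Log2 signal of the 34 members tested on each of the 4 arrays, after subtraction of the gene's own mean over the arrays; members are on the horizontal axis by role and the vertical axis is in log2 units. The downward triangles of KO 1 are the lowest symbol for 30 of 34 members; the exceptions are Irf9, Stat2, Ifit1 and Trim30a.

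**Figure D3:**
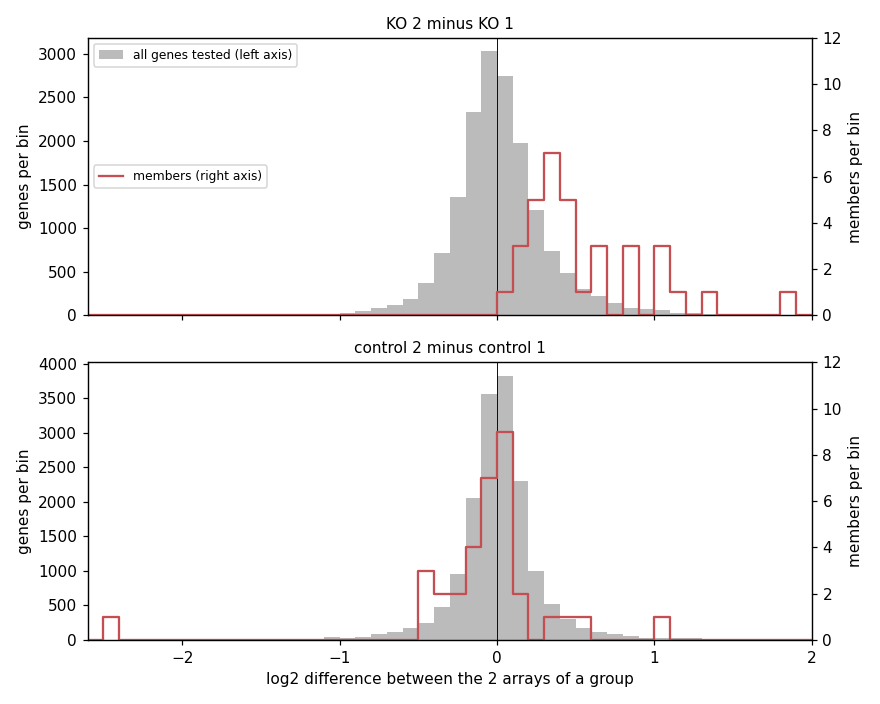
Difference between the 2 arrays of a group, in log2 units, for all 16524 genes tested (grey bars, left axis, genes per bin) and for the 34 members (line, right axis, members per bin); genes beyond the ends of the axis are not drawn. In the upper panel (KO 2 minus KO 1) all 34 members lie above 0 with a median of 0.43. In the lower panel (control 2 minus control 1) 15 lie above 0 and 19 below, with a median of −0.01.

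Among the cytosolic sensors of viral RNA, 3 of 4 members were tested. Ifih1, which encodes the long double-stranded RNA sensor MDA5, read −2.71 and −2.72 in the controls and −2.98 and −2.70 in KO. Ddx58, encoding RIG-I, the sensor of RNA ends, read −1.60 and −1.56 in the controls and −1.98 and −1.54 in KO. For both, KO 1 alone was low and KO 2 matched the controls, and the differences were −0.13 (SE 0.14) and −0.19 (SE 0.18). Dhx58, encoding the related regulator LGP2, read −2.92 and −3.03 in the controls against −3.25 and −3.08, the 1 sensor whose groups did not overlap. A second kept probe of Ddx58 gave −0.12 without overlap of the groups, with KO 2 below KO 1 by 0.03, the opposite of the order on the probe that was read.

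The transcription factors of the pathway split into 2 patterns. Irf9, the DNA-binding subunit of the ISGF3 complex, read 0.48 and 0.47 in the controls and 0.70 and 1.02 in KO, so both KO arrays were above both controls. Its difference was 0.39 (SE 0.14, limma adjusted p = 0.355), and a second probe also gave 0.39. Stat2, its partner in that complex, read 2.91 and 2.93 in the controls and 3.07 and 3.33 in KO (difference 0.28, SE 0.13, limma adjusted p = 0.421), with 0.43 on a second, dimmer probe, where KO 2 lay 0.02 below KO 1. Irf7, the factor that amplifies type I interferon production and is itself an interferon target, differed in pattern. It read 0.05 and 0.07 in the controls, −0.55 in KO 1 and 0.34 in KO 2, which put the KO arrays on opposite sides of the controls, and a second probe gave the same order.

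In the ISG15 system, Isg15 encodes a ubiquitin-like modifier and Usp18 the protease that removes it and restrains receptor signalling. Isg15 read 0.05 and 0.12 in the controls, −0.43 in KO 1 and 0.05 in KO 2, just below control 1. The difference was −0.27 (SE 0.19, limma adjusted p = 0.544), and nearly all of it came from KO 1. Usp18 read −2.89 and −3.36 in the controls, −3.66 in KO 1 and −2.63 in KO 2. Its KO arrays bracketed the controls at a distance of 1.03 from each other, and the difference between groups was −0.02.

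The OAS family, whose members make or resemble the enzymes that make 2′-5′ oligoadenylates and so activate RNase L, had the widest distance between the KO arrays, with a median of 1.11. Oas2 read −3.75 and −3.82 in the controls, −4.56 in KO 1 and −2.73 in KO 2, which is 3.56-fold more signal in KO 2 than in KO 1. Oas1a read −1.91 and −1.82 in the controls, −2.75 in KO 1 and −1.69 in KO 2. Oasl2, an OAS-like gene, read −1.54 and −1.44 in the controls, −2.25 in KO 1 and −1.08 in KO 2. For these 3 genes the 2 control arrays lay within 0.10 of each other and the KO arrays lay on either side of them. Oasl1, which encodes an inhibitor of Irf7 translation, was the exception. It read −3.65 and −3.61 in the controls and −4.32 and −3.91 in KO, a difference of −0.48 (SE 0.17, unadjusted p = 0.043, limma adjusted p = 0.343). A second, dimmer probe gave −0.56, but it was not well above background on KO 1, so the size of that difference is uncertain. Oas1a has close copies in the mouse genome, so its probe may read more than 1 gene.

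The IFIT genes, whose products bind viral RNA that lacks the host cap, differed little between groups. Ifit1 read −3.11 and −3.55 in the controls and −3.55 and −3.11 in KO, a difference of 0.002 with SE 0.23. Ifit2 read −3.97 and −4.03 in the controls and −4.26 and −3.97 in KO, and Ifit3 read −0.08 and −0.38 in the controls and −0.49 and −0.15 in KO. The groups overlapped for all 3 genes, with differences of −0.11 and −0.09 for the last 2.

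Of the 11 other antiviral effectors, 9 were tested and 8 of these were lowest in KO 1. Rsad2, which encodes viperin, an enzyme that makes a chain-terminating nucleotide, read −3.26 and −2.25 in the controls and −4.81 and −3.48 in KO. Both KO arrays were below both controls, at 38.2% of the control mean, but the arrays of each group lay over 1 apart and the difference of −1.39 had an SE of 0.58 (limma adjusted p = 0.386). Ifi44, a gene of little-known function that is strongly induced by type I interferon, read −1.97 in control 1, −4.41 in control 2 and −4.93 and −4.83 in KO. The value of control 1 came from the patch of raised background; against control 2 alone the difference was −0.47, and with such spots left out the gene was not tested. Trim30a, a TRIM protein that restrains inflammatory signalling, read −4.43 and −4.65 in the controls and −4.43 and −4.11 in KO, a difference of 0.27 (SE 0.16). It was the only gene of this group that was higher in KO.

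The remaining 6 effectors were Bst2 (tetherin, which holds budding virus at the cell surface), Xaf1 (a pro-apoptotic adaptor), Rtp4 (a receptor chaperone), Parp14 (a mono-ADP-ribosyltransferase), Lgals3bp (a secreted glycoprotein) and Ifi27. Their differences ran from −0.20 for Rtp4 to −0.45 for Ifi27, and KO 1 was the lowest array for all 6. KO 2 exceeded KO 1 by 0.33 for Parp14 and by 1.02 for Rtp4, the ends of the range. The groups did not overlap for Parp14 alone, and its second, dimmer probe gave 0.48 in the other direction. That probe was not well above background on control 1, so the size of its difference is uncertain. Over the 9 members with more than 1 kept probe, Parp14 was the only one whose probes disagreed in sign.

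Interferon-inducible GTPases, which assemble on the membranes of vacuoles that hold pathogens, had 4 members. Both guanylate-binding proteins among them were below control on both KO arrays. Gbp2 read −1.33 and −1.40 in the controls and −1.70 and −1.61 in KO, a difference of −0.29 (SE 0.10, unadjusted p = 0.043, limma adjusted p = 0.345), and Gbp3 read −1.05 on both control arrays and −1.53 and −1.21 in KO (difference −0.32, SE 0.14). Both immunity-related GTPases among them had KO arrays on either side of the controls. Igtp read −0.40 and −0.38 in the controls and −0.77 and −0.27 in KO. Irgm1, which regulates the other GTPases of its family, read −1.25 and −1.24 in the controls and −1.57 and −0.89 in KO, and the 3 Irgm1 probes gave KO 2 above KO 1 by 0.66 to 0.70. Outside the members the families were not uniform: Gbp6 read −2.88 and −2.46 in the controls and −2.46 and −1.80 in KO, and Irgm2 read −0.75 and −0.78 in the controls and −1.27 and −0.90 in KO.

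All 6 members of the class I antigen presentation group were lower in KO, as were 63.9% of all genes, with a median difference of −0.31. KO 1 was the lowest array for each (32.8% of all genes). B2m, the invariant light chain of MHC class I, read 3.46 and 3.33 in the controls and 2.79 and 3.10 in KO, or 73.3% of control (difference −0.45, SE 0.15, unadjusted p = 0.035, limma adjusted p = 0.332). H2-K1, a classical heavy chain, read 3.04 and 2.81 in the controls and 2.49 and 2.70 in KO (difference −0.33, SE 0.14, limma adjusted p = 0.398). A second H2-K1 probe gave −0.25, and H2-D1, the other classical heavy chain, gave −0.27, both without overlap of the groups. The heavy chain genes are near-identical in places, so their probes may read one another's transcripts.

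The genes that supply peptides to class I molecules were split in the same comparison. Psmb9, an inducible catalytic subunit of the immunoproteasome, read −1.89 and −2.30 in the controls and −2.71 and −2.37 in KO, a difference of −0.45 (SE 0.20) without overlap. Its divergently transcribed neighbour Tap1, a subunit of the peptide transporter, read −2.44 and −2.47 in the controls, −3.06 in KO 1 and −2.42 in KO 2, so that only KO 1 was below the controls. Psmb8, a second immunoproteasome subunit, differed by −0.14 with overlapping groups. Without KO 1 the differences of Tap1 and Psmb8 were 0.040 and 0.0032. Within the controls, control 1 was above control 2 for all 6 genes of the group, by a median of 0.21. The median of KO 2 minus KO 1 was 0.30 here and 0.46 over the other 28 members tested.

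Grouped by promoter letters, the 15 members with GAAANNGAAA in their window had a median KO 2 minus KO 1 of 0.44, and the 13 with a window and no such match had 0.33. Among genes that are not members, 470 tested genes with the motif had a median of 0.02 and KO 1 was below KO 2 for 54.3% of them, compared with 49% of 12536 tested genes without it.

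Other genes of the pathway were read from 8 lists, 93 genes in all, of which 80 were tested. At an unadjusted limma p under 0.05, 6 of the 80 were higher and 8 lower, against 3.16% and 5.65% of all genes. Of the 80, 0 passed the adjusted threshold in either direction. Of 9 interferon genes, 4 were tested and 0 had an unadjusted p under 0.05; the probes of Ifnb1, Ifng, Ifna2 and Ifna4 were not well above background on any array. Among 9 receptors and kinases, 2 were higher and 1 was lower at that level, led by Ifnlr1, the interferon lambda receptor chain, at 0.85 (SE 0.27), and Ifnar2, a type I receptor chain, at −0.42 (SE 0.15). KO 1 was below KO 2 for 3 of these 9 genes (49.5% of all genes). Among 9 upstream sensing genes tested, Cgas, the DNA sensor, was at 0.29 (SE 0.10) and Tlr7, an endosomal RNA receptor, at −0.64 (SE 0.15).

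Signalling genes and brakes followed the order of the KO arrays seen in the members. KO 1 was below KO 2 for 12 of 12 (49.5% of all genes), with a median gap of 0.19. Irf8, a factor of the macrophage lineage, had the smallest p on the lower side, at −0.31 (SE 0.11). In a list of 30 further interferon targets, 25 were tested. At an unadjusted limma p under 0.05, 0 were higher and 3 lower, against 3.16% and 5.65% of all genes. The median difference was −0.17, and KO 1 was below KO 2 for 20 of the 25 (49.5% of all genes). Gbp5, a guanylate-binding protein, led with −2.64 and −2.70 in the controls and −3.49 and −3.46 in KO (difference −0.81, SE 0.10, limma adjusted p = 0.273). Unlike most members, Gbp5 and Gbp4 (difference −0.53) had KO arrays close to each other and both below the controls. Cmpk2, a nucleotide kinase gene next to Rsad2, was at 0.58 (SE 0.23).

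Antigen presentation genes beyond the members had differences of both signs. Of 12 tested genes of class I processing, 8 had differences below 0 (63.9% of all genes), and the median was −0.11. Groups did not overlap for 5 on the lower side (32.1% of all genes) and for 4 on the higher side (13.8%). Those 4 were H2-Q4, Calr, Pdia3 (0.30) and Canx (0.22), the only genes of this list with differences above 0. At an unadjusted limma p under 0.05, 2 were higher and 0 lower, against 3.16% and 5.65% of all genes. The 2 were H2-Q4, a non-classical heavy chain with close copies, at 0.35 (SE 0.10), and Calr, at 0.48 (SE 0.16). Calr is the chaperone that helps load class I molecules and serves many other proteins. The 3 constitutive proteasome subunits that the inducible ones replace, Psmb5, Psmb6 and Psmb7, differed by −0.11 to −0.19. KO 1 was below KO 2 for 0 of 3 (49.5% of all genes). All 6 class II genes had differences below 0 (63.9% of all genes) with a median of −0.42. H2-Ab1, a class II chain, had the smallest p, at −0.50 (SE 0.17), and H2-DMb1 had the largest difference, at −0.59 (SE 0.21). KO 1 was the lowest array for 6 of 6 (32.8% of all genes).

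**Figure D4:**
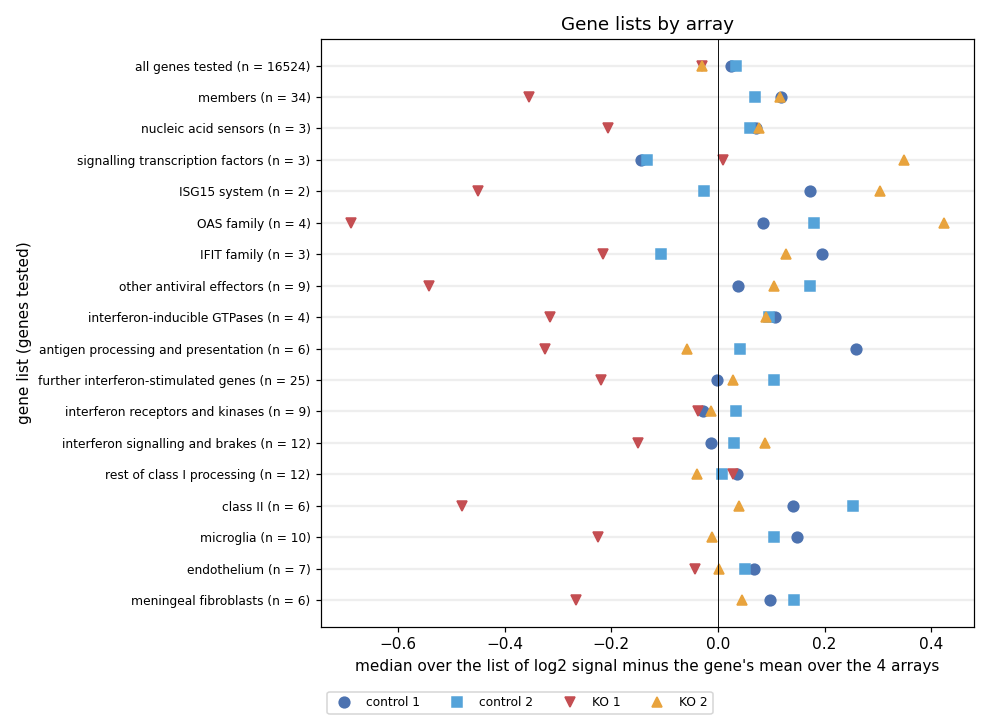
Median of each gene list on each array, as log2 signal minus the gene's mean over the 4 arrays (horizontal axis, log2 units), for all genes tested, the members, their roles and other lists, with the number of genes tested in parentheses. KO 1 lies to the left of the other arrays for the members (median −0.35) and for class II (−0.48), microglia (−0.23) and meningeal fibroblasts (−0.27).

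Several markers of cell types that carry these genes were also lowest on KO 1. Levels below are sums of linear signals over a list, in units of the array's 75th percentile. The members tested summed to 57.2 and 57.4 in the controls, 43.0 in KO 1 and 56.0 in KO 2. The 6 antigen presentation members summed to 28.4 and 25.1 in the controls, 19.4 in KO 1 and 22.6 in KO 2. The other 28 summed to 28.7 and 32.3 in the controls, 23.6 in KO 1 and 33.4 in KO 2. The KO 2 total thus joined a part below both controls and a part above both. The brightest genes weigh most in such sums. All 10 microglial markers were tested and had differences below 0 (63.9% of all genes), with a median of −0.23. KO 1 was lowest for 7 (32.8% of all genes). The sums of the microglial markers were 81.8 and 73.5 in the controls and 72.2 and 73.0 in KO. Siglech made up most of those sums, and without it they were 24.5 and 24.03 in the controls, 19.0 in KO 1 and 22.3 in KO 2. The 6 meningeal fibroblast markers had a median of −0.26, and KO 1 was lowest for 6 of 6 (32.8% of all genes). Their sums were 32.1 and 32.8 in the controls and 25.7 and 30.8 in KO. Endothelial markers (7 of 7 tested, median −0.11) summed to 37.9 and 35.7 in the controls and 35.7 and 38.7 in KO. Ly6c1 made up a large part of those sums. Without it they were 19.2 and 20.8 in the controls, 20.5 in KO 1 and 17.5 in KO 2, which reversed the order of the KO arrays. The part of microglia and meninges in the pattern of the members was not tested.

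About as many lymphocyte markers were undetected as were tested. Of 8 T and NK cell markers 4 were tested, and Cd3g, Cd8a, Nkg7 and Gzmb were not well above background on any array. The tested ones summed to 1.90 or more in each control and to 1.59 and 1.60 in KO. Most of that signal came from Cd4, and without it the sums were 0.56 and 0.54 in the controls and 0.51 and 0.50 in KO. Of 4 B cell markers, Cd79a and Ms4a1 were not well above background on any array, and the other 2 summed to 0.08 to 0.10 per array. Of 4 dendritic cell markers 2 were tested, with sums of 2.80 and 2.83 in the controls and 2.56 and 2.29 in KO, and Xcr1 was not well above background on any array. Of 5 neutrophil and monocyte genes tested, 3 were higher in KO at an unadjusted limma p under 0.05, against 3.16% of all genes. Among them, Ngp was well above background on only 2 arrays, so the size of its difference is uncertain. S100a9, a calcium-binding alarmin, read −2.60 and −0.78 in the controls and −0.05 and 1.30 in KO (difference 2.32, SE 0.77, limma adjusted p = 0.334). The neutrophil list summed to 18.2 and 14.7 in the controls and 15.1 and 22.0 in KO, nearly all of it from Ly6c2; without that gene the sums were 0.61 and 1.16 in the controls and 1.68 and 3.35 in KO. Ccr2 was not well above background on any array.

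Other tissue could be seen on 1 control. The 7 choroid plexus markers summed to 7.44 in control 1, 139.9 in control 2, 7.81 in KO 1 and 7.88 in KO 2, and the 4 red blood cell markers tested to 235 and 346 in the controls and 234 and 231 in KO. Without control 2 the median difference of the members was −0.24, beside −0.21 with it. The cerebellar identity of the samples was clear from granule cell markers (sums of 348 to 378) and Purkinje cell markers (591 to 623). Their median differences were −0.05 and −0.08. However, 1 of the 5 Purkinje cell markers, Car8, was far lower on KO 1 than on any other array. Car8 read 3.99 and 3.13 in the controls, 1.02 in KO 1 and 3.78 in KO 2 (difference −1.16, SE 0.98). Astrocyte and Bergmann glia markers had a median of −0.11.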

How the data were processed

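Cerebellar RNA, 150 ng a sample, was labelled with Cy3 per the labels' protocols and read on one-colour Agilent arrays. Sample titles gave the groups and replicate numbers. Scanner files as deposited hold processed signal, an intensity on a linear scale that is background subtracted and not normalized between arrays, with flags for spots well above background and for outliers. The software was Feature Extraction, version 12.1.1.1 per the file headers and 10.7.1.1 per the submitters' processing notes. The deposited series table holds log2 values, whose differences between arrays matched those computed here within 0.01 for 100% of 35661 probes; what each of its probes was centred on is not given, and its column medians ran from −0.2224 to 0.0071.

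The log2 signal minus the array's 75th percentile was computed here, outlier-flagged spots were left out, spots of a probe were averaged, and probes well above background on both arrays of a group were kept (37516 of 56559). Accessions were named through RefSeq GRCm38.p6 (91.9% of 35886 RefSeq probes). The 4 arrays were fitted with limma 3.58.1 in R 4.3.3 without a block, and the fit was tested on simulated data. Replicate numbers are shared between groups, but within-group deviations of same-numbered arrays correlated at 0.124 over 2 pairs and the labels tie them to nothing shared, so they were not taken as pairs.

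The members, roles and lists were chosen with earlier results of these data known. Array values are given, within each role, for up to 2 members per direction with the smallest p, up to 2 with the widest distance within a group, and members with 1 array over 1 log2 unit from the rest; from other lists, for the gene with the smallest p per direction. Further genes (Gbp4, Gbp6, Irgm2, H2-DMb1, Pdia3, Canx, Car8, Ly6c1, the undetected ones, Derl2) were named after their values were seen. Alternatives covered normalization, background correction, the filter on dim probes, the variance model, the replicate block, spots, probes per gene and each replicate left out. The number of arrays limits the precision.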

Additional observations from a re-analysis of the deposited data

How the results depend on the processing

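No member passed the adjusted threshold in the higher direction under any of 16 alternatives, or in the lower direction except without control replicate 2, where 1 did (Ifi44, −2.91, limma adjusted p = 0.0312, its remaining control spot being on the patch of raised background); leaving out each array gave 0 to 1. The count of members higher at an unadjusted p under 0.05 (1) became 0 with arrays centred on the median of probes well above background, 0 with no filter on dim probes, 2 with spike-in scaling, 2 with an intensity trend and robust variances, 2 with the mean of all kept probes of a gene, and 0 with a replicate block, and ran from 0 to 4 when each array was left out. The count lower (3) became 1 with quantile normalization, 0 with spike-in scaling, 5 with normexp, and 0 with no filter, and ran from 0 to 16. When each array was left out, members without overlap ran from 3 to 16 on the higher side and from 12 to 30 on the lower, with the extremes without KO 1 and without KO 2, and the median difference from −0.496 to 0.033. Under the other alternatives these were 2 to 3, 9 to 13, and −0.214 to −0.123. The replicate block changed no other count. With all arrays kept, 2 members changed sign: Ifit1 became −0.0028 on the median of probes well above background and −0.0094 with normexp, and Usp18 became 0.0067 with quantile normalization and 0.066 with spike-in scaling. Leaving out 1 array turned the sign of 17 members, with lowest and highest values of −0.22 and 0.22 for Ifit1, −0.25 and 0.032 for Ifit2, −0.26 and 0.084 for Ifit3, −0.53 and 0.50 for Usp18, −0.61 and 0.28 for Irf7, −0.76 and 0.41 for Oasl2, −0.89 and 0.18 for Oas1a, −0.77 and 1.06 for Oas2, −0.71 and 0.18 for Bst2, −0.27 and 0.013 for Ifih1, −0.41 and 0.034 for Ddx58, −0.38 and 0.12 for Igtp, −0.33 and 0.35 for Irgm1, −0.31 and 0.022 for Psmb8, −0.61 and 0.040 for Tap1, −0.71 and 0.31 for Rtp4, and −0.64 and 0.21 for Lgals3bp. Over all members and alternatives the limma adjusted p ran from 0.031 to 0.999. A group left with 1 array was assumed to vary like the other, and the cause of these shifts was not tested.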

Other observations

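Some values outside the comparisons above were chosen after they were seen. S100a8, the partner of S100a9 in calprotectin, read −4.61 and −3.00 in the controls and −2.27 and −1.16 in KO, and the neutrophil granule gene Ngp read −6.36 and −6.21 in the controls and −5.60 and −5.70 in KO. Both had their lowest value on control 1, but Ngp was well above background on only 2 arrays. Lum, a collagen-binding proteoglycan of the meninges, read −0.56 and −0.31 in the controls and −1.11 and −0.81 in KO, so both KO arrays were below both controls. P2ry12, a purinergic receptor of resting microglia, read −1.36 and −1.39 in the controls and −1.62 and −1.75 in KO, with KO 2 below KO 1, opposite to the order of the members.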
